A study of Arabidopsis thaliana with 9 samples.

Results

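The comparison set 3 seed libraries labelled rgl2-13 DOF6ioex against 3 DOF6ioex libraries of Arabidopsis thaliana, all in estradiol, across every expressed gene. A gene was tested when it reached 1 FPKM (fragments per kilobase of gene, scaled to the mapped fragments of the library) in at least 3 of these 6 libraries. This kept 13539 of the 22061 genes listed for the comparison, and the whole series of 9 libraries lists 22555. DOF6ioex seeds carry a construct through which estradiol induces overexpression of DOF6, and the seeds labelled rgl2-13 DOF6ioex carry the same construct in the background of rgl2-13, an allele of RGL2. Both kinds were freshly harvested seeds imbibed for 8 h with 50 µM β-estradiol. The 3 other libraries, DOF6ioex seeds imbibed for 8 h in mock solution, entered an alternative fit only, and all 3 groups carry the construct. Seeds without the construct, and rgl2-13 DOF6ioex seeds in mock solution, were not analysed here. The labels do not say whether the libraries of a group came from separate plants or seed lots, so the p-values measure the spread between these libraries, which may be technical.

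RGL2 is a DELLA protein, a nuclear repressor of gibberellin responses that holds back germination until gibberellin triggers its destruction. DOF6 is a zinc finger transcription factor that also holds back germination. In an imbibed seed the embryo has to grow and the endosperm and seed coat around it have to weaken, and expansins, xyloglucan endotransglucosylases/hydrolases (XTH) and mannanases loosen or cut cell walls in that process. The transcripts of storage proteins, oil body proteins and late embryogenesis abundant (LEA) proteins are made during maturation on the mother plant and are lost as germination proceeds.

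The FPKM totals were 706171 to 725697 in the rgl2-13-labelled libraries and 737222 to 748341 in the DOF6ioex libraries, and steps in the low values gave depths of 26200000 to 27900000 fragments. Markers of the embryo and its stores were abundant in every library, with a summed level of 43063 to 44426 FPKM for 5 genes in the rgl2-13-labelled libraries and 49238 to 51336 FPKM in the DOF6ioex libraries. EPR1, an extensin-like gene of the endosperm, was the highest gene in all 6 libraries, at 33815 to 67414 FPKM in the rgl2-13-labelled libraries and 37193 to 50203 FPKM in the DOF6ioex libraries. The other 3 listed endosperm markers were under 1 FPKM in every library. The 4 listed testa genes of flavonoid synthesis that were measured stayed under 1 FPKM in every library. Replicate 1 of the rgl2-13-labelled libraries stood apart. It lay at 33.8 on the first principal component (61.7% of the variance), with the other 5 libraries between -17.9 and 2.75, and it was the highest of the 6 libraries for 8529 of the 13539 tested genes (63%). The median difference over all tested genes was 0.11 on the log2(FPKM + 1) scale, 0.04 without that library and 0.01 under median-of-ratios scaling. The differences below are on that scale, as the rgl2-13 label minus DOF6ioex, and those of gene lists are also given relative to the median of all genes.

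RGL2 (AT3G03450), the gene that the allele names, had 17.9, 16.1 and 18.8 FPKM in the rgl2-13-labelled libraries, against 8.02, 7.57 and 10.2 FPKM in DOF6ioex seeds in estradiol. All 3 rgl2-13-labelled libraries were above all 3 DOF6ioex libraries, so the level goes against the label where it is read as a loss of the transcript. The means were 17.6 ± 1.36 FPKM in the rgl2-13-labelled libraries and 8.59 ± 1.39 FPKM in DOF6ioex seeds (SD, n = 3 each), and the difference of 0.97 ± 0.12 (SE) did not pass the test on 6 libraries (limma adjusted p = 0.0511). It passed with the 3 mock libraries in the fit (adjusted p = 0.0173) and without replicate 1 of the rgl2-13-labelled libraries (adjusted p = 0.017). It missed the threshold with any other 1 library left out (adjusted p of 0.0509 to 0.378). It also missed it with 0.1 in place of 1 added to FPKM (0.061) and with all listed genes tested (0.344). DOF6ioex seeds in mock solution had 10.4, 13.1 and 8.86 FPKM. A gene-level value does not show whether a transcript is intact, and where the allele lies in the gene is not given in the sources used here. For these reasons the libraries are called by their label throughout, and each direction given for them rests on that label.

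DOF6 (AT3G45610), the induced gene, had 52.2, 21.4 and 27.5 FPKM in the rgl2-13-labelled libraries, against 33.7, 32 and 36 FPKM in DOF6ioex seeds in estradiol. Mock libraries had 0.64, 0.86 and 0.41 FPKM. Replicate 1 of the rgl2-13-labelled libraries was above and replicates 2 and 3 were below every DOF6ioex library in estradiol. The difference was -0.11 ± 0.27 (adjusted p = 0.847), and it turned to 0.16 when replicate 2 of the rgl2-13-labelled libraries was left out and to -0.46 when replicate 1 was. GATA12, a GATA-type transcription factor gene, was at 0.01, 0.04 and 0.02 FPKM in the rgl2-13-labelled libraries, against 0.02, 0.01 and 0.01 FPKM in DOF6ioex seeds, where 0.01 is the lowest value listed, and it was not tested.

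Across all genes the groups were close. The differences ran from -0.17 at the 5th percentile to 0.37 at the 95th. With 6 libraries 7 genes passed an adjusted p of 0.05, which is 0.0517% of those tested, 5 of them higher (0.0369%) and 2 lower (0.0148%) in the rgl2-13-labelled libraries. All 7 differed by more than 1 on the log2 scale, and in each the groups did not overlap. With the 3 mock libraries in the fit 22 genes passed (0.162%), 19 higher (0.14%) and 3 lower (0.0222%), and all of the 7 were among them. Without replicate 1 of the rgl2-13-labelled libraries 29 passed (0.214%), 22 higher and 7 lower, again with all of the 7, and without replicate 3 of the DOF6ioex libraries 4 passed. Under median-of-ratios scaling 13 passed, 84.6% of them higher, against 71.4% unscaled. The groups did not overlap for 2813 tested genes (20.8%), 2140 of them higher (15.8%) and 673 lower (4.97%) in the rgl2-13-labelled libraries.

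**Figure D1:**
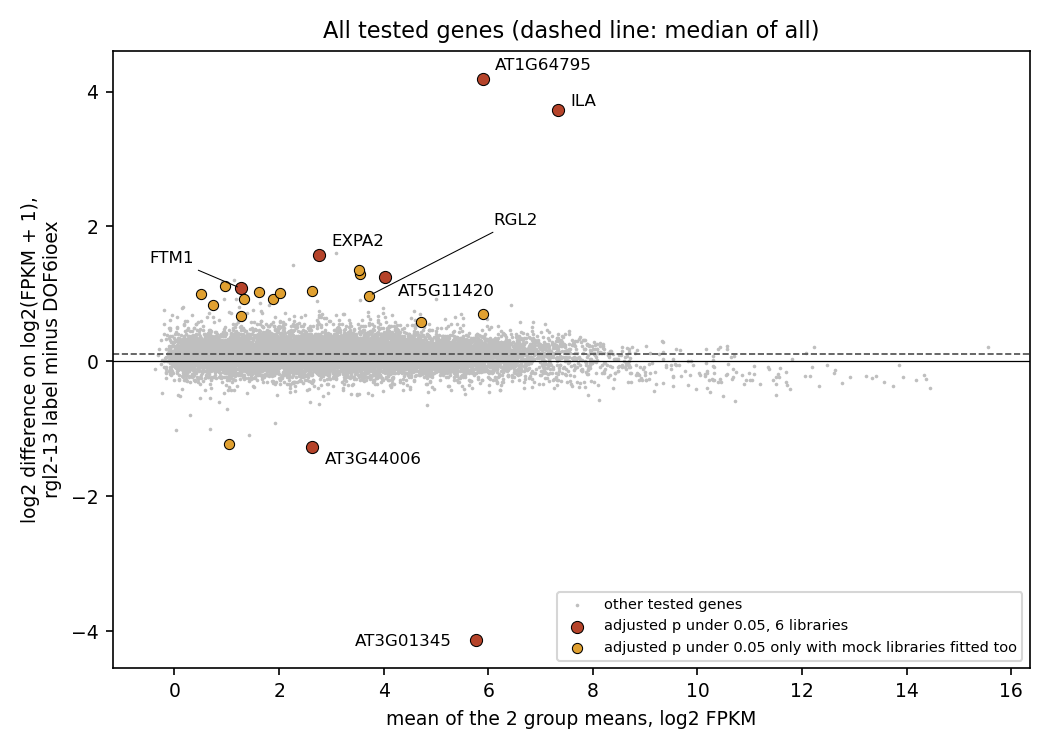
Each point is a tested gene, with the mean of the 2 group means (log2 FPKM) on the horizontal axis and the log2 difference, rgl2-13 label minus DOF6ioex, on the vertical axis. AT1G64795 and ILA at the top (4.19 and 3.72) and AT3G01345 at the bottom (-4.13) lie far outside the cloud of genes, whose median is 0.11.

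The gene with the greatest fall was AT3G01345, annotated only as an expressed protein. It had 5.14, 5.04 and 4.72 FPKM in the rgl2-13-labelled libraries, against 97.6, 98.9 and 114 FPKM in DOF6ioex seeds in estradiol. The replicates of each group lay close together and the groups were far apart, and the mock libraries (113, 99.1 and 95.8 FPKM) were like the DOF6ioex libraries in estradiol. It averaged 4.97 ± 0.219 FPKM in the rgl2-13-labelled libraries and 103 ± 8.98 FPKM in DOF6ioex seeds (SD, n = 3 each), a difference of -4.13 ± 0.09 (adjusted p = 3.06e-07). AT3G01345 lies on the same chromosome as RGL2. In the TAIR10.1 annotation 233 protein-coding genes lie between them, of which 132 were tested and 0 passed, against 0.0517% of all tested genes. With a share that low, 0 of 132 says nothing particular about this stretch.

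AT3G44006, a gene for a hypothetical protein on the same chromosome, fell as well. It had 3.33, 3.38 and 2.91 FPKM in the rgl2-13-labelled libraries, against 8.43, 9.77 and 9.26 FPKM in DOF6ioex seeds, and mock libraries had 9.26, 9.21 and 11.9 FPKM. The groups did not overlap, and the difference was -1.27 ± 0.10 (adjusted p = 0.00223). AT3G01345 and AT3G44006 passed in each of the 6 fits that left out 1 library.

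The greatest rises were at 1 locus. ILA (AT1G64790) encodes a large HEAT-repeat protein related to the translation factor GCN1 and acts in plant immunity. It had 344, 266 and 288 FPKM in the rgl2-13-labelled libraries, against 21, 21.3 and 22.7 FPKM in DOF6ioex seeds and 15.6, 18.8 and 25.4 FPKM in mock libraries. AT1G64795 had 116, 107 and 117 FPKM in the rgl2-13-labelled libraries, against 7.04, 4.32 and 4.76 FPKM in DOF6ioex seeds and 3.21, 5.54 and 7.95 FPKM in mock libraries. Neither gene's groups came near each other. The means of ILA were 299 ± 40.4 FPKM in the rgl2-13-labelled libraries and 21.7 ± 0.909 FPKM in DOF6ioex seeds, 13.8 times apart (difference 3.72 ± 0.11, adjusted p = 1.29e-06). Those of AT1G64795 were 113 ± 5.45 FPKM in the rgl2-13-labelled libraries and 5.37 ± 1.46 FPKM in DOF6ioex seeds (SD, n = 3 each), 21.1 times apart (difference 4.19 ± 0.15, adjusted p = 4.63e-06). Both passed in each of the 6 fits that left out 1 library.

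In the TAIR10.1 annotation AT1G64795 lies inside ILA on the other strand, and whether the counting used strand is not given in the sources used here, so reads of the pair cannot be told apart. The deposited tables give ILA a length of 795 bases, while its 3 RefSeq transcripts have 8334 to 8503 bases. The value for ILA thus stands for a short model within the locus. Such a mismatch was rare: among 13400 tested genes with a RefSeq transcript, 6869 (51.3%) had a deposited length equal to one, and 4 (0.0299%) had a length under 20% of the shortest. The lengths of AT1G64795 (201 bases), AT3G01345 (1612 bases), AT3G44006 (705 bases) and RGL2 (2316 bases) equalled a RefSeq transcript.

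The other 3 genes that rose were expressed at lower levels. FTM1, a stearoyl-acyl carrier protein desaturase, had 3.57, 3.63 and 3.7 FPKM in the rgl2-13-labelled libraries, against 0.82, 1.34 and 1.49 FPKM in DOF6ioex seeds in estradiol. Mock libraries had 5.94, 5.83 and 4.73 FPKM, so the rgl2-13-labelled libraries lay between the DOF6ioex libraries in estradiol and in mock solution. The difference from DOF6ioex seeds in estradiol was 1.08 ± 0.13 (adjusted p = 0.0405). AT5G11420, a cell wall protein of the DUF642 family, had 26.5, 25 and 18.8 FPKM in the rgl2-13-labelled libraries, against 8.92, 8.9 and 9.78 FPKM in DOF6ioex seeds. Its mock libraries had 13, 16.9 and 12.9 FPKM and lay between the groups, and the difference was 1.25 ± 0.13 (adjusted p = 0.0214).

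The last of them was EXPA2, an alpha-expansin known for its expression in the endosperm of germinating seeds. It had 11, 12 and 8.79 FPKM in the rgl2-13-labelled libraries, against 2.63, 4.07 and 2.1 FPKM in DOF6ioex seeds in estradiol and 3.92, 3.81 and 5.1 FPKM in mock libraries. The lowest rgl2-13-labelled library was above the highest of the other 6, and the difference was 1.58 ± 0.19 (adjusted p = 0.0405). The differences of these 3 genes stayed close when 1 library was left out, at 0.94 to 1.17 for FTM1, 1.42 to 1.78 for EXPA2 and 1.15 to 1.39 for AT5G11420, but their calls depended on the library. With 1 library left out FTM1 passed only without replicate 1 of the rgl2-13-labelled libraries (adjusted p = 0.017) and reached 0.223 without replicate 2 of the DOF6ioex libraries. EXPA2 passed without replicate 1 of the rgl2-13-labelled libraries (0.0134) and without replicate 2 of the DOF6ioex libraries (0.0282), and had adjusted p of 0.166 and 0.102 without replicates 1 and 3 of the DOF6ioex libraries and of 0.0509 and 0.0579 without replicates 2 and 3 of the rgl2-13-labelled libraries. AT5G11420 passed without any 1 of the rgl2-13-labelled libraries (0.0037 to 0.042) and missed the threshold without any 1 of the DOF6ioex libraries (0.0928 to 0.214). For FTM1 the other 4 left-out libraries gave adjusted p of 0.0548 to 0.16.

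**Figure D2:**
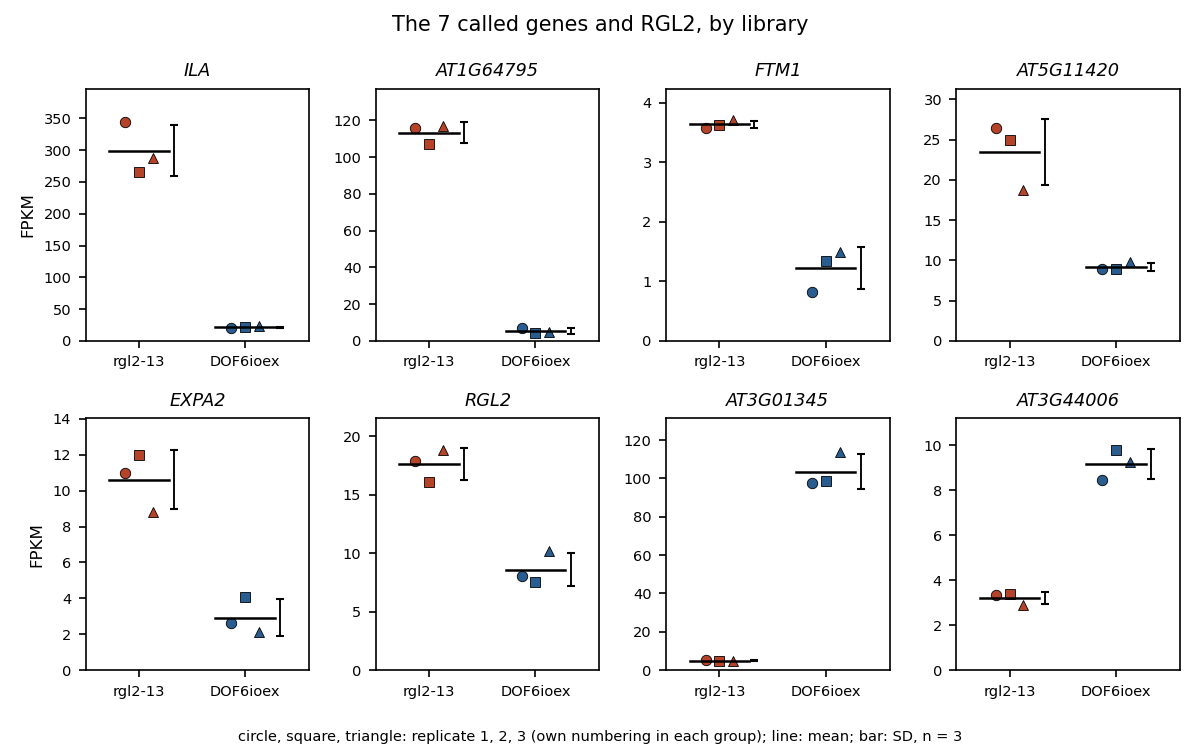
FPKM per library for the 7 genes that passed and for RGL2, with the 3 rgl2-13-labelled libraries at the left and the 3 DOF6ioex libraries in estradiol at the right of each panel (line: mean, bar: SD, n = 3). The groups do not overlap in any panel, and only AT3G01345 and AT3G44006 are lower in the rgl2-13-labelled libraries.

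Among genes of the cell wall the alpha-expansins stood highest. Of 17 listed, 13 were in the tables and 7 were tested; all 7 were fitted higher in the rgl2-13-labelled libraries, against 76.5% of all tested genes. EXPA2 passed, and 5 were higher without overlap, against 15.8% of all tested genes. Their median difference was 0.58, or 0.47 relative to all genes, and 0.43 to 0.59 with 1 library left out. Beside EXPA2, EXPA1 had 23.7, 13.9 and 14.1 FPKM in the rgl2-13-labelled libraries, against 5.09, 6.83 and 6.97 FPKM in DOF6ioex seeds (difference 1.29 ± 0.20, adjusted p = 0.116). EXPA8 had 22.1, 12.9 and 16.2 FPKM in the rgl2-13-labelled libraries, against 4.33, 5.94 and 7.87 FPKM in DOF6ioex seeds (1.36 ± 0.22, adjusted p = 0.116). Both had their highest value in replicate 1 of the rgl2-13-labelled libraries, and both passed with the mock libraries in the fit (adjusted p = 0.0228 for EXPA1 and 0.0428 for EXPA8). EXPA9 had 2.04, 1.89 and 1.58 FPKM in the rgl2-13-labelled libraries, against 0.93, 1.2 and 0.6 FPKM in DOF6ioex seeds (adjusted p = 0.248). All alpha-expansins together were 0.0112, 0.00788 and 0.0081% of the FPKM total in the rgl2-13-labelled libraries, against 0.00332, 0.00416 and 0.00434% in DOF6ioex seeds, with no overlap.

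The XTH genes, whose enzymes cut and rejoin xyloglucan, went both ways. Of 24 listed, 11 were tested, 9 of them fitted higher and 2 lower, with a median of 0.50 (0.39 relative to all genes), and 0 passed with 6 libraries. XTH19 had 2.01, 1.62 and 3.14 FPKM in the rgl2-13-labelled libraries, against 0.55, 0.57 and 0.69 FPKM in DOF6ioex seeds (adjusted p = 0.116, and 0.0196 with the mock libraries in the fit). XTH18 had 2.21, 3.95 and 2.83 FPKM in the rgl2-13-labelled libraries, against 0.39, 0.87 and 1.02 FPKM in DOF6ioex seeds (adjusted p = 0.116). XTH18 and XTH19 are close copies, and how reads shared by such copies were assigned is not given in the sources used here. XTH25, the most abundant of these, had lower values instead, with 1037, 1230 and 1301 FPKM in the rgl2-13-labelled libraries, against 1691, 1699 and 1679 FPKM in DOF6ioex seeds (difference -0.51 ± 0.10, adjusted p = 0.189). XTH30 had 5.65, 4.67 and 4.27 FPKM in the rgl2-13-labelled libraries, against 3.11, 3.26 and 3 FPKM in DOF6ioex seeds (adjusted p = 0.222).

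Of the 4 endo-beta-mannanases tested, which cut the mannans of endosperm walls, 2 were fitted higher and 2 lower. Their median was -0.11 relative to all genes. MAN7 was the 1 member with groups that did not overlap, against 20.8% of all tested genes. It had 9.14, 10.3 and 6.83 FPKM in the rgl2-13-labelled libraries, against 4.22, 2.89 and 3.91 FPKM in DOF6ioex seeds (difference 1.05 ± 0.16, adjusted p = 0.114, and 0.0173 with the mock libraries in the fit). MAN1 had 12.7, 15.9 and 13.9 FPKM in the rgl2-13-labelled libraries, against 19.6, 17.6 and 15 FPKM in DOF6ioex seeds (adjusted p = 0.406). In the DUF642 family all 5 tested members were fitted higher, against 76.5% of all tested genes. DGR2 turned from 0.27 to -0.07 without replicate 1 of the rgl2-13-labelled libraries. The family's median was 0.40, or 0.29 relative to all genes and 0.20 relative to all genes without that library. AT5G11420 alone of the family passed. AT3G08030, its most abundant member, had 85.7, 77.1 and 67.2 FPKM in the rgl2-13-labelled libraries, against 44.8, 45.4 and 58 FPKM in DOF6ioex seeds (adjusted p = 0.204). EXPA2 overlaps AT5G05300, and MAN7 overlaps AT5G66470, in the TAIR10.1 annotation, so reads of these pairs cannot be told apart without strand.

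**Figure D3:**
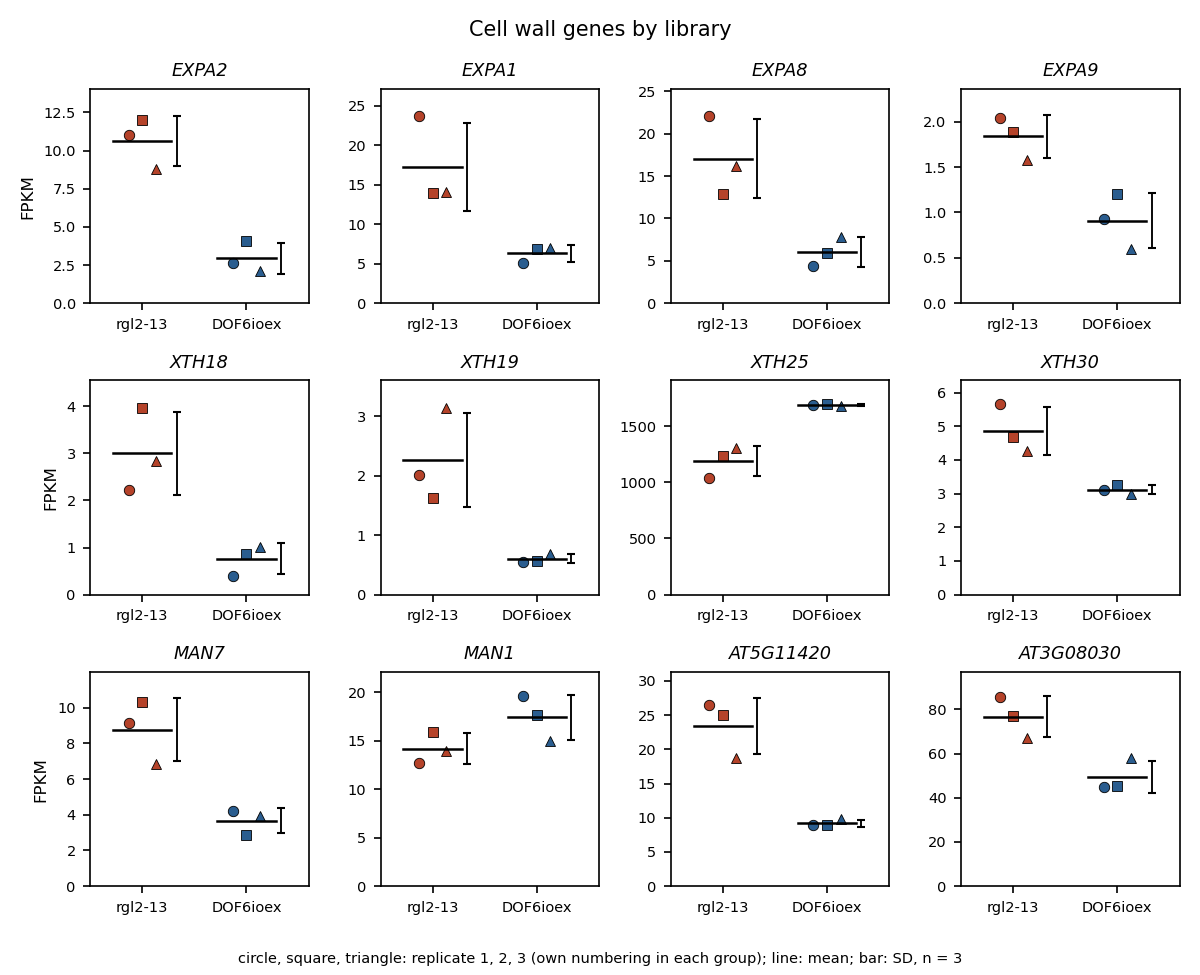
FPKM per library of 12 cell wall genes, with the rgl2-13-labelled libraries at the left and the DOF6ioex libraries in estradiol at the right of each panel (line: mean, bar: SD, n = 3). EXPA2, EXPA1, EXPA8, XTH18, XTH19 and MAN7 lie higher in every rgl2-13-labelled library, while XTH25 lies lower in each.

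The transcripts that seeds store from maturation lay lower. All 12 seed storage protein genes were fitted lower in the rgl2-13-labelled libraries, against 23.5% of all tested genes, and the groups of 10 did not overlap, against 4.97% of all tested genes that were lower without overlap, but 0 passed. Their median difference was -0.29, or -0.40 relative to all genes (-0.30 without replicate 1 of the rgl2-13-labelled libraries). They made up 12, 12.7 and 12.3% of the FPKM total in the rgl2-13-labelled libraries, against 14.9, 14.5 and 14.6% in DOF6ioex seeds, so the groups did not overlap. In such whole-seed RNA, fewer cells of a type and less RNA per cell cannot be told apart.

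The cruciferins are globulins of the seed stores. CRU2 and AT1G03890 gave the smallest p of the storage genes. The cruciferin genes CRA1 and CRU3 had adjusted p of 0.359 and 0.368. CRU2 had 2320, 2403 and 2498 FPKM in the rgl2-13-labelled libraries, against 3571, 3324 and 3328 FPKM in DOF6ioex seeds (difference -0.50 ± 0.08, adjusted p = 0.116). AT1G03890, a further cruciferin-like gene, had 195, 207 and 194 FPKM in the rgl2-13-labelled libraries, against 280, 287 and 279 FPKM in DOF6ioex seeds (adjusted p = 0.116, and 0.0382 without replicate 1 of the rgl2-13-labelled libraries). In both genes the replicates lay close together and the groups apart. With 1 library left out AT1G03890 passed only without that replicate 1, and its adjusted p reached 0.605. SESA5, one of the napins, the small storage albumins, had 19094, 17951 and 20760 FPKM in the rgl2-13-labelled libraries, against 23381, 26343 and 26379 FPKM in DOF6ioex seeds (adjusted p = 0.274). The napins SESA1 to SESA4 are near-identical neighbours whose single values are uncertain.

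Of the 12 oil body genes, which encode the oleosins and caleosins that coat oil droplets, 11 were fitted lower and 0 passed. Their median was -0.21, or -0.31 relative to all genes (-0.19 without replicate 1 of the rgl2-13-labelled libraries). CLO1, a caleosin, had 357, 358 and 372 FPKM in the rgl2-13-labelled libraries, against 441, 463 and 446 FPKM in DOF6ioex seeds (difference -0.31, adjusted p = 0.276). OLEO4, an oleosin, had 2632, 3139 and 3061 FPKM in the rgl2-13-labelled libraries, against 3958, 3662 and 3596 FPKM in DOF6ioex seeds (adjusted p = 0.313). Both genes were lower in every rgl2-13-labelled library. Oil body genes took 3.63, 4.12 and 4.08% of the FPKM total in the rgl2-13-labelled libraries and 4.3, 4.33 and 4.24% in DOF6ioex seeds.

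LEA proteins and dehydrins protect dry seeds. Of 36 tested genes 29 were fitted lower and 7 higher, against 23.5% and 76.5% of all tested genes. The groups did not overlap for 17 of the lower and 3 of the higher members, against 4.97% and 15.8% of all tested genes, and 0 passed. The median was -0.18, or -0.29 relative to all genes (-0.14 without replicate 1 of the rgl2-13-labelled libraries). Their share of the FPKM total was 8.65, 9.81 and 10.3% in the rgl2-13-labelled libraries and 10.8, 10.9 and 10.1% in DOF6ioex seeds, so the groups overlapped. M10, a gene of this list, had 3184, 2764 and 3097 FPKM in the rgl2-13-labelled libraries, against 3889, 4087 and 4038 FPKM in DOF6ioex seeds (difference -0.41, adjusted p = 0.215). COR47, a dehydrin of cold response, went the other way, with 3.84, 3.76 and 2.86 FPKM in the rgl2-13-labelled libraries, against 1.42, 1.41 and 2.47 FPKM in DOF6ioex seeds (difference 0.71, adjusted p = 0.238). High genes take a share of a fixed total, so with FPKM a lower sum of stored transcripts and higher values of the others cannot be told apart.

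**Figure D4:**
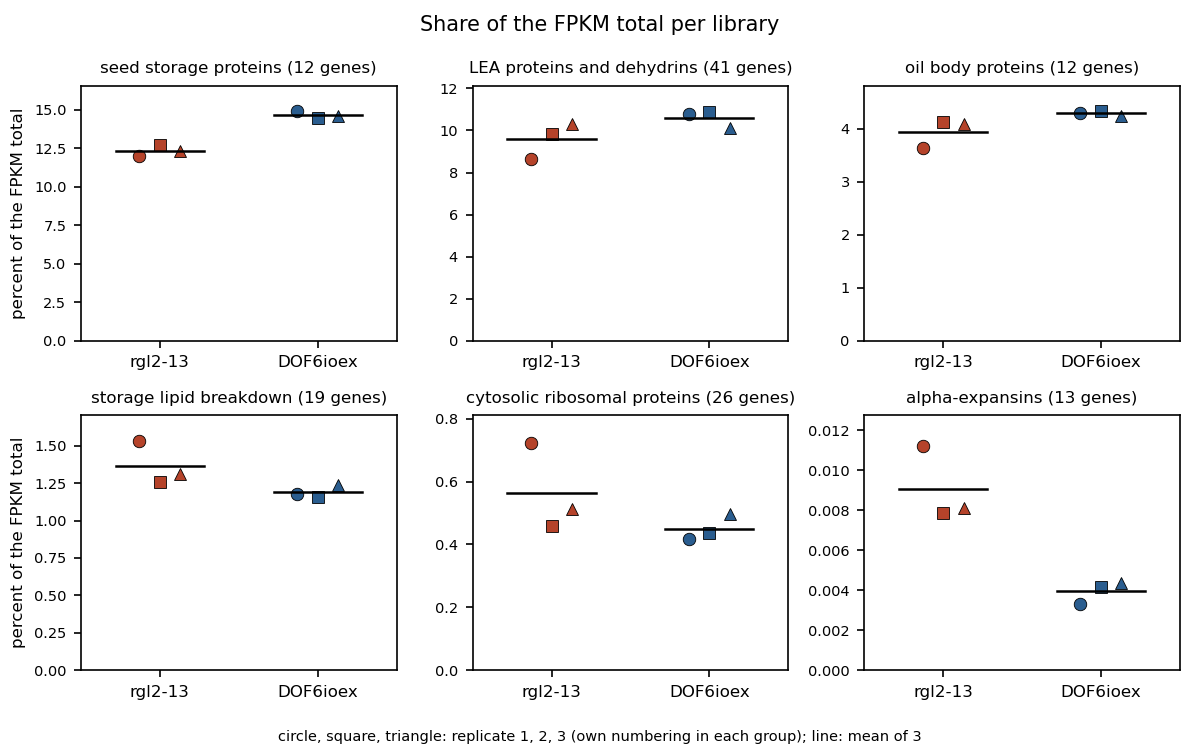
Share of the FPKM total (percent) held by 6 gene lists in each library, with the rgl2-13-labelled libraries at the left and the DOF6ioex libraries in estradiol at the right (line: mean of 3). Seed storage genes hold 12 to 12.7% in the rgl2-13-labelled libraries and 14.5 to 14.9% in DOF6ioex seeds, while the share of cytosolic ribosomal proteins is raised in replicate 1 of the rgl2-13-labelled libraries.

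In gibberellin perception and among the DELLA genes, 5 of 10 tested members were fitted higher and 5 lower, with a median of 0.01 (-0.10 relative to all genes). RGL2 had the largest difference of the tested DELLA genes. RGA1, the best known repressor of stem growth in the family, had 14.2, 9.6 and 9.4 FPKM in the rgl2-13-labelled libraries, against 7.9, 6.99 and 8.8 FPKM in DOF6ioex seeds (difference 0.42, adjusted p = 0.38). RGL3, a DELLA gene linked to jasmonate responses, had 13.2, 13.6 and 13.8 FPKM in the rgl2-13-labelled libraries, against 15.2, 14.7 and 15.7 FPKM in DOF6ioex seeds (-0.16, adjusted p = 0.449). Neither passed. The groups of each did not overlap, and in the list 3 of 10 members were higher and 1 lower without overlap. Among all tested genes these were 15.8% and 4.97%. Of 7 genes of gibberellin metabolism 5 were fitted higher and 2 lower, and 0 passed.

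Of 12 listed genes that gibberellin is known to affect, 4 were tested and 0 passed. CP1 (AT4G36880), a cysteine proteinase gene, had 58.1, 35.1 and 35.3 FPKM in the rgl2-13-labelled libraries, against 21, 22 and 21.1 FPKM in DOF6ioex seeds (difference 0.93 ± 0.18, adjusted p = 0.178, and 0.00741 without replicate 1 of the rgl2-13-labelled libraries). GASA14, a small secreted peptide gene, had 10.2, 8.11 and 7.86 FPKM in the rgl2-13-labelled libraries, against 6.51, 6.24 and 6.34 FPKM in DOF6ioex seeds (adjusted p = 0.311). Of the same peptide family, GASA2 had 161, 197 and 199 FPKM in the rgl2-13-labelled libraries, against 246, 221 and 222 FPKM in DOF6ioex seeds (adjusted p = 0.359). The groups did not overlap in these 3 genes, with CP1 and GASA14 higher and GASA2 lower. Among all tested genes 15.8% were higher and 4.97% lower without overlap. With 1 library left out CP1 passed only without replicate 1 of the rgl2-13-labelled libraries, and its adjusted p reached 0.716. The groups of GASA3, the remaining tested gene, overlapped (difference -0.06), and the list median was 0.06 relative to all genes.

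No gene of dormancy or of abscisic acid synthesis and signalling passed. Of 12 dormancy regulators 11 were fitted higher and 1 lower, with a median of 0.17 that is 0.06 relative to all genes, and 0 passed. DOG1, the main quantitative dormancy gene, named for that role after its values were seen, had 12.8, 17.8 and 16.2 FPKM in the rgl2-13-labelled libraries, against 17.9, 18.4 and 18.4 FPKM in DOF6ioex seeds (difference -0.22, adjusted p = 0.457). MFT, a phosphatidylethanolamine-binding protein gene that acts in seeds, had 51.2, 46.7 and 47.4 FPKM in the rgl2-13-labelled libraries, against 41, 40.3 and 41.4 FPKM in DOF6ioex seeds (0.24, adjusted p = 0.36). Among 26 genes of abscisic acid signalling 17 were fitted higher and 9 lower, with a median of 0.02 (-0.08 relative to all genes), and 0 passed. The receptor gene PYL8 had 11, 7.77 and 6.85 FPKM in the rgl2-13-labelled libraries, against 4.71, 4.77 and 5.49 FPKM in DOF6ioex seeds (0.65, adjusted p = 0.256). In genes of abscisic acid synthesis and catabolism 7 of 9 were fitted higher, with a median of 0.04 relative to all genes (-0.04 to 0.07 with 1 library left out). Of maturation regulators 6 of 11 were fitted higher, with a median of 0.03 relative to all genes that turned to -0.11 without replicate 1 of the rgl2-13-labelled libraries.

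Single genes of several metabolic and transport groups missed the threshold with 6 libraries and passed with the mock libraries in the fit. The 3 given here also passed without replicate 1 of the rgl2-13-labelled libraries (adjusted p = 0.0415 for NRT2.6, 0.033 for AT4G01610 and 0.033 for ABCG37). They missed the threshold with any other 1 library left out, where adjusted p reached 0.605 for NRT2.6, 0.605 for AT4G01610 and 0.444 for ABCG37. NRT2.6, a nitrate transporter gene, had 6.13, 5.42 and 4.01 FPKM in the rgl2-13-labelled libraries, against 2.27, 2 and 2.46 FPKM in DOF6ioex seeds in estradiol and 4.88, 5.57 and 6.16 FPKM in mock libraries (difference from DOF6ioex in estradiol 0.92, adjusted p = 0.114, and 0.0173 with the mock libraries). Its rgl2-13-labelled libraries thus lay near the mock level. The nitrate list had a median of 0.00 relative to all genes, with 9 of 13 tested members fitted higher. AT4G01610, a cathepsin B-type cysteine proteinase gene, had 85.8, 69.8 and 67.7 FPKM in the rgl2-13-labelled libraries, against 41.5, 45.3 and 49 FPKM in DOF6ioex seeds (0.70, adjusted p = 0.116, and 0.0173 with the mock libraries). ABCG37, a transporter gene of the ABC family, had 4.13, 3.57 and 3.08 FPKM in the rgl2-13-labelled libraries, against 1.27, 1.28 and 1.69 FPKM in DOF6ioex seeds (0.93, adjusted p = 0.0647, and 0.00493 with the mock libraries).

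Among genes of the xenobiotic response, which detoxify foreign compounds, the members went in opposite directions. CYP81D11, a cytochrome P450 gene, had 36.6, 29.3 and 29.8 FPKM in the rgl2-13-labelled libraries, against 21.5, 20 and 20.6 FPKM in DOF6ioex seeds (difference 0.59, adjusted p = 0.158, and 0.0428 with the mock libraries in the fit). CYP81D8, of the same P450 family, had 44.3, 43.9 and 42.2 FPKM in the rgl2-13-labelled libraries, against 55, 55.9 and 56.5 FPKM in DOF6ioex seeds (-0.35, adjusted p = 0.222). Of 17 tested members 14 were fitted higher, against 76.5% of all tested genes, and 3 lower, and 0 passed with 6 libraries. Their median was 0.28, or 0.17 relative to all genes (0.10 without replicate 1 of the rgl2-13-labelled libraries). CYP81D11 overlaps AT3G28730 in the TAIR10.1 annotation, so reads of this pair are uncertain too.

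AT4G30993, a calcineurin-like phosphoesterase gene, was the 1 gene with a lower value among the 15 that passed with the mock libraries in the fit and not with the 6 libraries. It had 0.63, 0.68 and 1.12 FPKM in the rgl2-13-labelled libraries, against 3, 4.75 and 2.25 FPKM in DOF6ioex seeds (difference -1.23, adjusted p = 0.119, and 0.0428 with the mock libraries). The other 14 had higher values. Beside those given above they included AT3G29140, at 3.1, 2.45 and 3.54 FPKM in the rgl2-13-labelled libraries, against 0.53, 1.29 and 0.78 FPKM in DOF6ioex seeds (1.12, adjusted p = 0.114, and 0.0118 with the mock libraries). They also included AT4G33560, of a wound-responsive family, at 2.42, 2.01 and 2.85 FPKM in the rgl2-13-labelled libraries, against 0.71, 1.12 and 0.89 FPKM in DOF6ioex seeds in estradiol and 4.19, 2.94 and 2.89 FPKM in mock libraries (0.84, adjusted p = 0.114, and 0.0428 with the mock libraries). A further 3 were expressed at low levels, AT1G12310, which encodes a calcium-binding EF-hand protein, the phosphomannomutase gene PMM, and 1 gene known only by a name from the authors' pipeline, with differences of 1.03, 0.67 and 1.02. In the TAIR10.1 annotation AT1G12310 overlaps AT1G12320, PMM overlaps AT2G45800 and AT4G30993 overlaps a small nucleolar RNA gene, so their reads cannot be assigned without strand.

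Several groups had their highest share of the FPKM total in replicate 1 of the rgl2-13-labelled libraries. All 26 cytosolic ribosomal protein genes were fitted higher, with a median of 0.25 that is 0.14 relative to all genes, 0.02 without that library, and 0 passed. They held 0.722, 0.46 and 0.513% of the FPKM total in the rgl2-13-labelled libraries and 0.416, 0.436 and 0.497% in DOF6ioex seeds. RPS18A, of the small ribosomal subunit, had 116, 68.2 and 85.5 FPKM in the rgl2-13-labelled libraries, against 65.1, 66.7 and 65.1 FPKM in DOF6ioex seeds (adjusted p = 0.395). Of 23 low-oxygen response genes 20 were fitted higher and 3 lower, with a median of 0.24 relative to all genes that fell to 0.09 without replicate 1. FTM1, described above, is on this list and was the 1 member that passed. PDC1, a pyruvate decarboxylase gene of fermentation named after its values were seen, had 71.6, 44.7 and 50.5 FPKM in the rgl2-13-labelled libraries, against 33.7, 45.9 and 46.8 FPKM in DOF6ioex seeds (adjusted p = 0.427). Storage lipid breakdown genes held 1.53, 1.26 and 1.31% of the FPKM total in the rgl2-13-labelled libraries, against 1.18, 1.16 and 1.24% in DOF6ioex seeds. Of their 18 tested members 13 were fitted higher, against 76.5% of all tested genes, and 0 passed. Their median was -0.04 relative to all genes, and -0.07 without replicate 1 of the rgl2-13-labelled libraries. The medians of these lists without replicate 1 are those given here, and what set that library apart was not tested.

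Of the remaining lists none had a member that passed with 6 libraries. Some members had groups that did not overlap, and those given are among the smallest p of their lists. Without overlap, 2 of 6 dark-inducible genes were lower, and of 7 reactive oxygen enzymes 2 were higher and 3 lower. Of 14 ethylene genes 4 were higher and 1 lower, and of 4 GATA genes 1 was higher. Among all tested genes 15.8% were higher and 4.97% lower in this way. DIN6, a dark-inducible asparagine synthetase gene, had 192, 207 and 198 FPKM in the rgl2-13-labelled libraries, against 244, 258 and 278 FPKM in DOF6ioex seeds (difference -0.38, adjusted p = 0.228). The catalase gene CAT1 had 58.6, 68.3 and 63.8 FPKM in the rgl2-13-labelled libraries, against 78, 77.5 and 83.4 FPKM in DOF6ioex seeds (-0.32, adjusted p = 0.311). Both genes were lower in every rgl2-13-labelled library. APX1, a cytosolic ascorbate peroxidase gene, had higher values instead, with 5.79, 4.7 and 6.29 FPKM in the rgl2-13-labelled libraries, against 2.4, 2.69 and 4.11 FPKM in DOF6ioex seeds (0.71, adjusted p = 0.242). ERS1, an ethylene receptor gene, had 2.72, 1.8 and 2.19 FPKM in the rgl2-13-labelled libraries, against 1.11, 0.96 and 1.37 FPKM in DOF6ioex seeds (0.59, adjusted p = 0.225). GATA8, a GATA factor gene that promotes germination, had 9.75, 12.5 and 8.62 FPKM in the rgl2-13-labelled libraries, against 7.41, 7.06 and 6.3 FPKM in DOF6ioex seeds (0.50, adjusted p = 0.309).

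**Figure D5:**
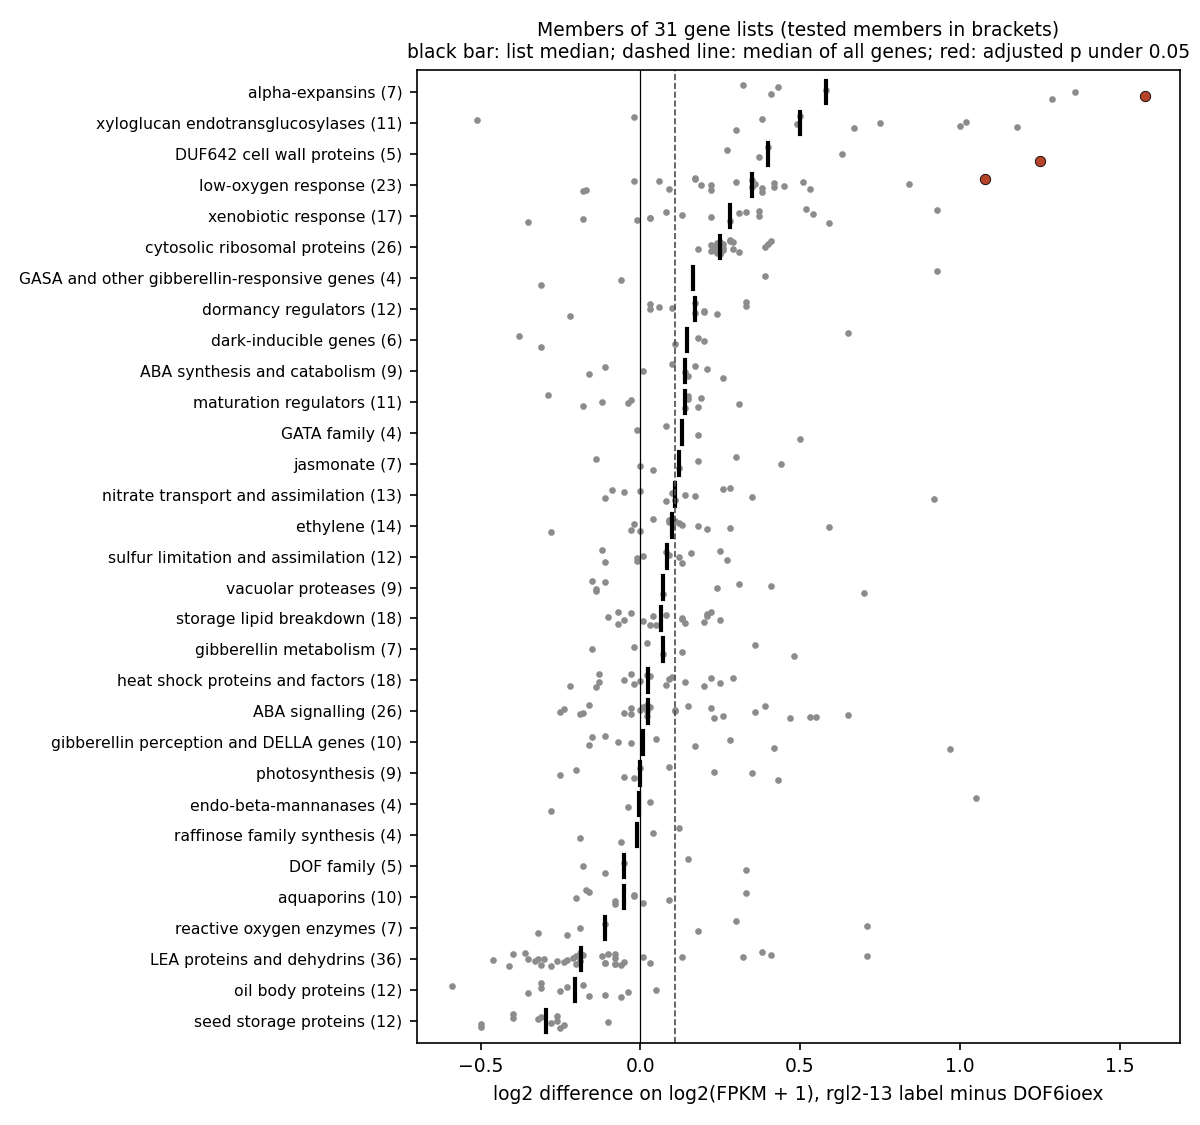
Log2 difference, rgl2-13 label minus DOF6ioex, of each tested member of 31 gene lists, with the list median as a bar, the median of all genes (0.11) as a dashed line, and members that passed in red. Alpha-expansins (0.58) and XTH genes (0.50) have the highest medians, and seed storage (-0.29), oil body (-0.21) and LEA (-0.18) genes the lowest.

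Beyond the lists and the 2 genes that fell, the most negative differences among genes without overlap and at 5 FPKM or more were between -0.91 and -0.49. AT1G17990, a gene of the FMN-linked oxidoreductase family, had 3.05, 1.53 and 2.54 FPKM in the rgl2-13-labelled libraries, against 4.4, 5.55 and 5.79 FPKM in DOF6ioex seeds (-0.91, adjusted p = 0.178, and 0.033 without replicate 1 of the rgl2-13-labelled libraries). AT4G27290, annotated as a protein kinase gene, had 19.1, 24.7 and 21.1 FPKM in the rgl2-13-labelled libraries, against 44.9, 29.9 and 29.9 FPKM in DOF6ioex seeds (-0.65, adjusted p = 0.298). Its deposited length of 349 bases is also far below that of its RefSeq transcripts. J8, a DnaJ-type chaperone gene of the plastid, had 197, 233 and 237 FPKM in the rgl2-13-labelled libraries, against 315, 336 and 344 FPKM in DOF6ioex seeds (difference -0.58, adjusted p = 0.128, and 0.0401 without replicate 1 of the rgl2-13-labelled libraries). Toc90, a gene of protein import into plastids, had 3.93, 5.16 and 4.6 FPKM in the rgl2-13-labelled libraries, against 7.83, 7.66 and 6.78 FPKM in DOF6ioex seeds (-0.60, adjusted p = 0.171). CYP71B37, a cytochrome P450 gene, had 9.62, 9.38 and 9.11 FPKM in the rgl2-13-labelled libraries, against 12.5, 14.2 and 14 FPKM in DOF6ioex seeds (-0.49, adjusted p = 0.163). In each of these genes the rgl2-13-labelled libraries were all lower, and the size was under that of the 2 genes that fell. With 1 library left out AT1G17990 and J8 passed only without replicate 1 of the rgl2-13-labelled libraries, and both reached an adjusted p of 0.716.

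No defining marker of green tissue, pollen, flower or root hairs was high. The 6 green tissue genes summed to 26.4 to 34.2 FPKM in the rgl2-13-labelled libraries and 22.3 to 25.5 FPKM in DOF6ioex seeds, without overlap. Most of this was RBCS1A, the small subunit of Rubisco, at 25.6, 22.9 and 29.8 FPKM in the rgl2-13-labelled libraries, against 19, 19.6 and 22.1 FPKM in DOF6ioex seeds (adjusted p = 0.349). The light-harvesting gene LHCB1.1 was at 0.3 FPKM or less in all 6 libraries. Pollen genes summed to under 1 FPKM in every library, with VGD1 at 0.01 in all, and the flower gene AP3 was at 0.03 FPKM or less. The root hair gene RHD6 had 1.74, 0.85 and 1.55 FPKM in the rgl2-13-labelled libraries and 1.38, 1.26 and 1.54 FPKM in DOF6ioex seeds, with overlap. The summed mucilage cell genes of the seed coat overlapped between groups, at 176 to 247 FPKM in the rgl2-13-labelled libraries and 161 to 203 FPKM in DOF6ioex seeds. Most of this was ARA12, at 239, 169 and 171 FPKM in the rgl2-13-labelled libraries, against 153, 163 and 196 FPKM in DOF6ioex seeds. Of the 6 listed mucilage genes 3 were under 1 FPKM in every library. The embryo markers include storage genes and were lower in the rgl2-13-labelled libraries, as given above, and their part in other results was not tested.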

How the data were processed

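RNA of 9 seed libraries was sequenced, 3 per group as the labels assign them. The submitters' processing notes name HISAT as the aligner. Its version, the build and the quantification tool: not given in the sources used here. No coordinates or sequences are therefore printed. The deposited tables give FPKM per gene for pairs of libraries, per the file headers, with 0.01 as the lowest value. The authors headed the values of 1 table RPKM. Its DOF6ioex library had identical values for all 19897 genes shared with a second table headed FPKM, so both were taken as FPKM. The tables also give a gene length, per the file headers.

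The 3 tables were joined, and a gene missing from a table was set to 0.01 (6.83% of values). Of 21924 loci, 21742 matched the TAIR10.1 gene table, used for names, transcript lengths and gene order. As planned for FPKM, limma (version 3.58.1, R 4.3.3) was run with a trended variance on log2(FPKM + 1) of the 6 libraries, without covariates. The filter asked for 1 FPKM in 3 or more libraries, and p-values were adjusted by Benjamini-Hochberg over all 13539. The scale understates changes of low genes. The fit was tested on simulated data.

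FPKM hides the depth. Low values lay within 0.15 of a whole number of fragments in 70.0 to 76.0% of cases (chance gives 30%), which gave 26200000 to 27900000 fragments. With 50 bases taken off each length it was 81.5 to 88.9%, and 29100000 to 31400000 fragments. No counting interval was derived.

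Named genes are RGL2, DOF6 and GATA12, genes called with 6 or with 9 libraries, up to 12 genes each way with the largest differences among those without overlap at 5 FPKM or more, up to 4 members per list with the smallest p, and the 5 highest genes. Others are marked. The comparison, the 32 gene lists and the 8 marker lists were chosen with earlier results of these data known. Lists were not tested. Alternatives were a fit on 9 libraries, another pseudocount, no filter, 2 scalings, a replicate block and each library left out, and 2 more were added after seeing the data.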

Additional observations from a re-analysis of the deposited data

How the results depend on the processing

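The count of called genes, 7 with 6 libraries, moved with the samples and the scaling. It was 22 (19 higher) with 9 libraries, 13 (11 higher) under median-of-ratios and under upper quartile scaling, and 5 (3 higher) with a pseudocount of 0.1 and without a filter. It ran from 4 to 29 with 1 library left out, 2 to 22 of them higher and 2 to 7 lower. The 2 alternatives chosen after seeing the data gave 21 (18 higher) with 9 libraries without replicate 1 of the rgl2-13-labelled libraries, and 26 (20 higher, 6 lower) with 9 libraries under median-of-ratios scaling. The cause was not tested. ILA, AT1G64795, AT3G01345 and AT3G44006 passed in every fit given here. FTM1 and EXPA2 missed the threshold with a pseudocount of 0.1 (adjusted p = 0.0802 and 0.0577), FTM1 and AT5G11420 with the block below (0.125 each), and all 3 without a filter (0.258 to 0.344), where AT3G13674, under 1 FPKM in all 6 libraries, passed instead. Replicate numbers are shared by the groups, but same-numbered libraries did not deviate together (correlations -0.419, -0.0887 and -0.229). With the replicate number as a block 5 genes passed, 3 of them higher.

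RGL2 gave 0.97 with 9 libraries (adjusted p = 0.0173), 0.86 under median-of-ratios scaling (0.0357) and under upper quartile scaling (0.0344), 0.95 with 9 libraries without replicate 1 of the rgl2-13-labelled libraries (0.0192) and 0.86 with 9 libraries under median-of-ratios scaling (0.0377). It ran from 0.89 to 1.08 with 1 library left out (adjusted p of 0.017 to 0.378) and had an adjusted p of 0.125 with the block. RGL2 also missed the threshold with a pseudocount of 0.1 (adjusted p = 0.061) and without a filter (0.344). DOF6 ran from -0.46 to 0.16 with 1 library left out, where 0.16 reverses its sign. The difference of RHD6, -0.03, turned to 0.02 and 0.14 with replicate 3 of the DOF6ioex and replicate 2 of the rgl2-13-labelled libraries left out.

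Relative to all genes, the alpha-expansin median was 0.85 with a pseudocount of 0.1. With 1 library left out the medians ran from -0.38 to -0.19 for oil body genes, -0.33 to -0.14 for LEA genes, -0.07 to -0.01 for abscisic acid signalling, -0.08 to 0.07 for gibberellin metabolism, -0.02 to 0.10 for nitrate genes, -0.08 to 0.02 for vacuolar proteases, -0.34 to -0.07 for reactive oxygen enzymes, -0.20 to -0.01 for raffinose synthesis and -0.04 to 0.05 for mucilage cells. With 9 libraries without replicate 1 of the rgl2-13-labelled libraries these lists gave -0.19 (oil body), -0.14 (LEA), -0.01 (abscisic acid signalling), 0.02 (vacuolar proteases), -0.07 (reactive oxygen), -0.01 (raffinose) and -0.04 (mucilage). The planned fit with weights per library did not converge: it put a weight of 22.48 on 1 library and 0.146 to 1.618 on the others, and its 3250 calls (2605 higher, 645 lower) are not used here. The 3 libraries per group, an estimated depth, values with 2 decimals and no counts limit what low genes can show.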

Other observations

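Outside the comparison's calls, 11 genes passed only when replicate 1 of the rgl2-13-labelled libraries was left out, 6 with higher and 5 with lower values, in neither the fit on 6 nor that on 9 libraries. They were chosen after their values were seen. Besides XTH18, CP1, AT1G03890, AT1G17990 and J8, they include 2 genes of arabinogalactan proteins, which are glycoproteins of the cell surface. AGP31 had 1.07, 2.18 and 1.81 FPKM in the rgl2-13-labelled libraries, against 0.64, 0.36 and 0.6 FPKM in DOF6ioex seeds (difference 0.79, limma adjusted p = 0.204, and 0.0213 without that library). AGP9 had 3.29, 3.35 and 3.86 FPKM in the rgl2-13-labelled libraries, against 1.22, 1.18 and 2.02 FPKM in DOF6ioex seeds (0.88, adjusted p = 0.116, and 0.0494 without that library). AT1G68570 had 39.3, 38.2 and 40.4 FPKM in the rgl2-13-labelled libraries, against 54.5, 54.6 and 57 FPKM in DOF6ioex seeds (-0.49, adjusted p = 0.116, and 0.0415 without that library). In these 3 genes the groups did not overlap, against 20.8% of all tested genes, but genes picked this way are likely not to overlap.

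Among gene lists, marker lists aside, whose medians are not given above, reactive oxygen enzymes, aquaporins and DOF genes lay farthest from the median of all genes. Relative to all genes the median was -0.08 for heat shock genes (11 of 18 fitted higher), -0.16 for aquaporins (3 of 10, and 9 of 10 below the median of all genes), -0.02 for sulfur genes (8 of 12), 0.04 for dark-inducible genes (4 of 6), -0.21 for reactive oxygen enzymes (3 of 7, and -0.34 to -0.07 with 1 library left out) and -0.12 for raffinose synthesis (2 of 4). It was -0.00 for ethylene (11 of 14), 0.01 for jasmonate (5 of 7), -0.11 for photosynthesis (4 of 9), -0.16 for DOF genes (2 of 5) and 0.02 for GATA genes (3 of 4). Of 12 listed genes of cell cycle entry 1 was tested. Among all genes, 5 were listed at 0.01 FPKM in 1 library and at 5 FPKM or more in another of the same group.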
